A study of Homo sapiens with 6 samples.

Results

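The genes described here are 10 genes of the heparan sulfate system in MRC5, an established human lung fibroblast line. They are the sulfatases *SULF1* and *SULF2*, the chain polymerase subunit *EXT1*, the glypicans *GPC1*, *GPC4* and *GPC6*, the syndecans *SDC1*, *SDC2* and *SDC4*, and perlecan (*HSPG2*). They were found by symbol among the 58676 gene identifiers of the count table, and all 10 passed the filter on low counts that left 19072 genes for testing. The set was chosen by gene family on results of this comparison, the fold changes between the 2 groups. The differences of these 10 genes between the groups are therefore a description, and no p value is given for them. Test calls, standard errors and alternative analyses given for them below belong to that description and are no independent support for a difference.

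Gene expression was counted after the fibroblasts had spent 24 h in conditioned media (CM). The CM came from ATII ER:KRASV12, a human alveolar type II epithelial line in which 4-hydroxytamoxifen (4-OHT) switches on a RAS protein fused to a hormone-binding domain. In control CM (3 libraries) the epithelial cells had received no 4-OHT, and in 4-OHT CM (3 libraries) they had. The labels name no other treatment of the fibroblasts in either group, and the epithelial cells are grown in medium with newborn calf serum. All libraries come from 1 cell line on each side, so p values measure the spread between these cultures, which the labels do not call biological or technical, and an effect of RAS activation in the epithelial cells cannot be told apart from 4-OHT carried over in the CM.

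Heparan sulfate is a long sugar chain built on core proteins at the cell surface and in the matrix. Its sulfate groups bind growth factors such as FGFs, Wnts and VEGF and shape how these reach their receptors. Chains are started on a linker sugar, extended by EXT1 and EXT2 in the Golgi, sulfated by a series of enzymes there, and finally trimmed outside the cell by SULF1 and SULF2, which remove sulfate from the 6-O position. Syndecans cross the membrane, glypicans are held by a lipid anchor, and perlecan is laid down in basement membranes.

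Library totals ranged from 17691849 to 26389449 counts, so that abundant genes carried little counting error. Among the 10 genes, counts per library went from 174 for *SULF2* to 14670 for *EXT1*. The shallowest library, control CM replicate 2, stood apart from the other libraries on the second principal component (23.3% of variance), while the first (43.4%) split the groups. All 10 fibroblast markers were detected, with a summed level of 41046 to 44562 CPM in control CM and 42913 to 44654 CPM in 4-OHT CM (CPM, counts over TMM-scaled library sizes), most of it *COL1A1* and *COL1A2*. Of the 10, *COL3A1*, *PDGFRA*, *LUM* and *DCN* rose (log2 fold changes of 0.18 to 0.33) and *VIM* fell (-0.10), with adjusted p values below the threshold from edgeR. Of 10 epithelial markers, *KRT5* and *NKX2-1* had no count, *CDH1* had at most 3 in any library, and the list summed to 91.2 to 97.2 CPM in control CM and to no more than that in 4-OHT CM (lowest 88.9), nearly all of it *KRT18*, *KRT8* and *KRT19*. *PECAM1*, *CDH5* and *ERG* of the endothelial list and *CD3E* of the leukocyte list were at 0. The endothelial list summed to 120 to 138 and 163 to 172 CPM in the 2 groups, nearly all of it *TEK*, which rose (log2 fold change 0.37, adjusted p = 0.000162 from edgeR) and was 1 of the 2 genes of that list that were tested, and the leukocyte list to at most 2.09 CPM. All 10 of a list of cycling cell genes were lower in 4-OHT CM and passed the test, with summed levels of 335 to 357 and 218 to 244 CPM. Of all genes tested, 5.72% passed the test. The part of these marker and cycling genes in the results given here was not tested.

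Among the 10 genes, 5 were upregulated differentially expressed genes (DEGs, adjusted p below 0.05 in edgeR's quasi-likelihood test over all genes tested) and 2 were downregulated. The 5.72% of all genes tested that were DEGs divide into 2.95% upregulated and 2.76% downregulated, and of the genes tested at or above a mean of 10 CPM, as all 10 genes here are, 10.2% were DEGs. The number of DEGs among the 10 genes fell from 7 to 3 without control CM replicate 3 and to 4 without 4-OHT CM replicate 1 or replicate 2. DESeq2 also called 7 of the 10 and 5% of all. The groups did not overlap in 8 of the 10 genes and in 22.1% of all genes tested. Over the 10 genes the median log2 fold change came to 0.17, from -0.45 for *HSPG2* to 0.53 for *SULF1*, beside a median of -0.0020 over all genes tested. Since the set was chosen on this comparison, nothing is read from its shares against those of all genes.

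**Figure D1:**
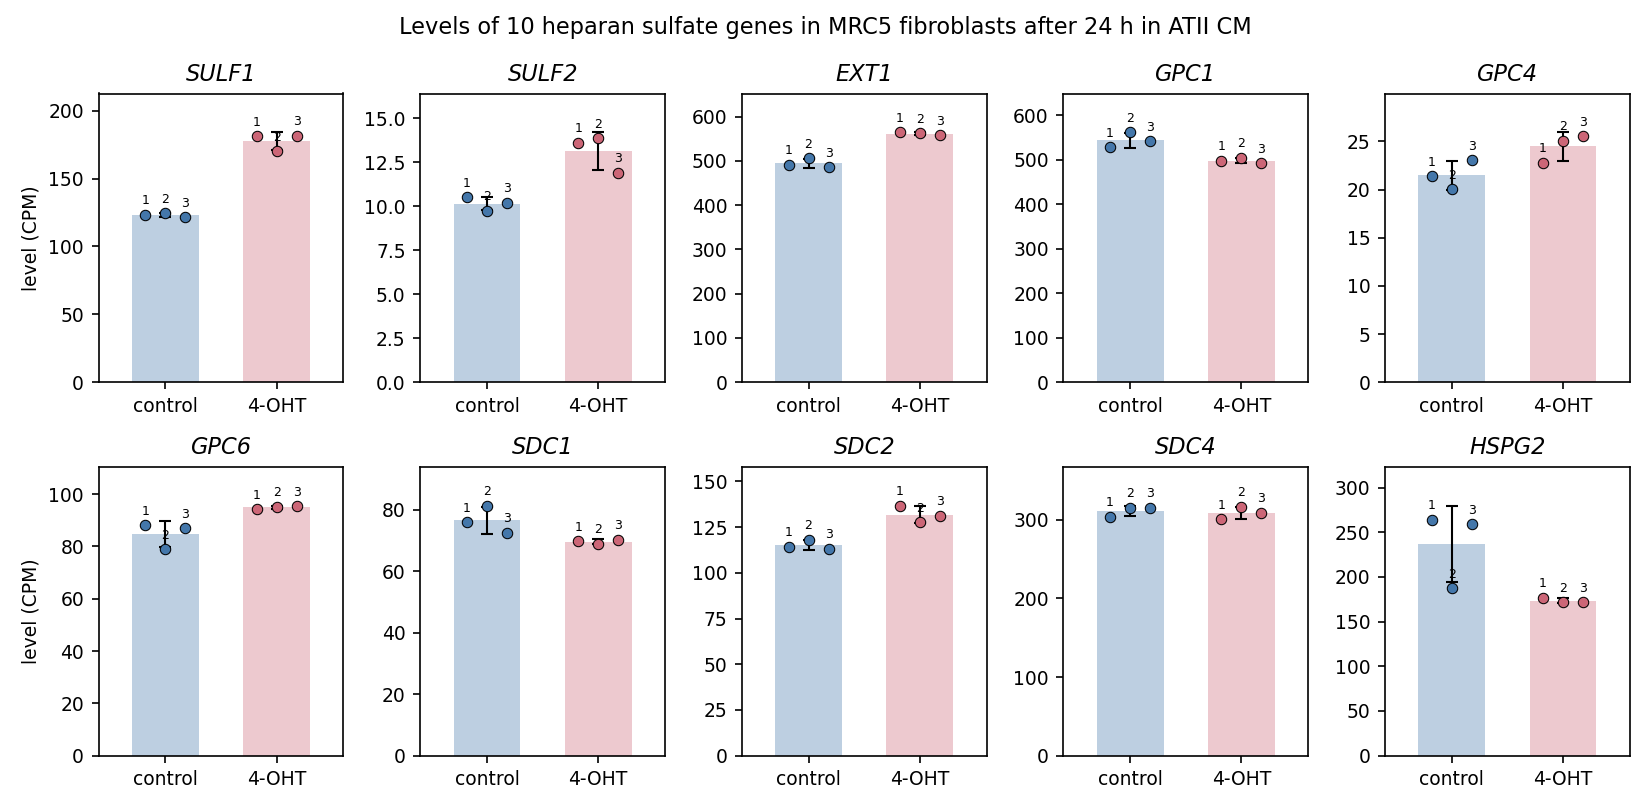
Level in CPM (vertical axis, from 0) of each of the 10 genes in the 3 control CM and 3 4-OHT CM libraries. Bars are means, error bars the SD, and points single libraries numbered by replicate. *SULF1* rises from about 123 to 178 CPM with no overlap, *SDC4* stays near 310 CPM, and *HSPG2* has 1 control library, replicate 2, close to the 4-OHT libraries.

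Of the sulfatases, *SULF1* was the more abundant and both were higher in 4-OHT CM. The gene *SULF1* (ENSG00000137573) lies on chromosome 8 of GRCh38 from 69466624 to 69660915. It had 124, 124 and 121 CPM in control CM replicates 1 to 3 and 181, 170 and 182 CPM in 4-OHT CM. The 6 libraries fell into their groups with a wide gap. The log2 fold change was 0.53 (standard error, SE, 0.0374), a rise of 44.4%, and *SULF1* was a DEG in all 12 alternative analyses.

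*SULF2* (ENSG00000196562, chromosome 20, 47656348 to 47786616), which encodes the paralogous enzyme, had 10.5, 9.74 and 10.2 CPM in control CM and 13.6, 13.9 and 11.9 CPM in 4-OHT CM. The groups did not overlap, although 4-OHT replicate 3 lay closer to the controls than the other two. Its log2 fold change was 0.37 (SE 0.0863). It was no longer a DEG when control replicate 3, 4-OHT replicate 1 or 4-OHT replicate 2 was left out, with log2 fold changes of 0.37, 0.35 and 0.32. Of its exons, 1.44% overlap those of *NCOA3* on the opposite strand, whose log2 fold change was -0.03.

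Levels of different genes were compared per length, as CPM per kilobase of merged exons (FPKM). The FPKM of *SULF1* was 13.1 ± 0.163 (SD, n = 3) in control CM and 18.9 ± 0.684 in 4-OHT CM, and that of *SULF2* 1.52 ± 0.0569 and 1.97 ± 0.160. *SULF1* thus stood at 8.60 ± 0.382 times *SULF2* in control CM and 9.64 ± 1.07 times in 4-OHT CM. The ratio of 4-OHT replicate 2, 8.69, lay within the control range of 8.33 to 9.04, so the balance of the 2 sulfatases did not separate the groups.

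*EXT1* (ENSG00000182197, chromosome 8, 117794490 to 118111853), the catalytic partner of EXT2 in chain elongation, had 492, 505.5 and 486 CPM in control CM and 564, 562 and 558 CPM in 4-OHT CM. All 3 libraries of 4-OHT CM lay above the 3 controls, and the log2 fold change was 0.18 (SE 0.0294). It was a DEG in all 12 alternatives. *EXT2* was at 165 ± 3.69 CPM in control CM and 165 ± 1.76 CPM in 4-OHT CM (SD, n = 3 each), with a log2 fold change of -0.0018 (adjusted p = 0.990 from edgeR). The FPKM ratio of *EXT1* to *EXT2* was 1.93, 1.90 and 1.88 in control CM and 2.17, 2.19 and 2.13 in 4-OHT CM, with no overlap between the groups.

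Of the 3 glypicans, *GPC1* was a downregulated DEG, *GPC6* was an upregulated DEG and *GPC4* was not a DEG. *GPC1* (ENSG00000063660, chromosome 2, 240435671 to 240468078), the most abundant of them, had 528, 562 and 542 CPM in control CM and 497, 504 and 492 CPM in 4-OHT CM. The groups were separate but close, and the log2 fold change was -0.13 (SE 0.0316), a change of -8.46%. *GPC6* (ENSG00000183098, chromosome 13, 93226842 to 94407401) had 88.2, 79.0 and 87.0 CPM in control CM and 94.1, 95.2 and 95.3 CPM in 4-OHT CM. Its lowest value was that of control replicate 2, and its log2 fold change was 0.16 (SE 0.0431).

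Among the 7 DEGs of the 10 genes, the calls of *GPC1* and *GPC6* were lost most often with 1 library left out. Neither was a DEG when control replicate 3 or any 1 of the 3 4-OHT libraries was left out. In these 4 analyses the log2 fold change of *GPC1* ranged from -0.14 to -0.12 and that of *GPC6* from 0.16 to 0.18. *GPC4* (ENSG00000076716, chromosome X, 133300103 to 133415490) was not a DEG in any analysis. It had 21.4, 20.0 and 23.1 CPM in control CM and 22.8, 25.1 and 25.6 CPM in 4-OHT CM, with overlapping groups and a log2 fold change of 0.19 (SE 0.0686). Among the 3 glypicans, *GPC1* made up 82.7 ± 1.24% of the summed FPKM in control CM and 79.6 ± 0.410% in 4-OHT CM, and *GPC6* 13.0 ± 0.963% and 15.3 ± 0.157% (SD, n = 3 each).

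Among the syndecans, *SDC2* was the DEG. *SDC2* (ENSG00000169439, chromosome 8, 96493351 to 96611780), the syndecan typical of mesenchymal cells, had 114, 118 and 113 CPM in control CM and 137, 128 and 131 CPM in 4-OHT CM. The groups did not overlap, and the log2 fold change was 0.20 (SE 0.0385). Without control replicate 3 it was 0.18 and *SDC2* was not a DEG, while the other 11 alternatives kept the call.

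*SDC1* (ENSG00000115884, chromosome 2, 20200797 to 20225433), the main syndecan of epithelia, had 75.9, 81.4 and 72.6 CPM in control CM and 69.9, 68.9 and 70.3 CPM in 4-OHT CM. Its control libraries spread more than its 4-OHT libraries and lay above them, but with a log2 fold change of -0.13 (SE 0.0435) it did not pass the threshold in any analysis. *SDC4* (ENSG00000124145, chromosome 20, 45325288 to 45348424), a syndecan of focal adhesions, had 304, 315 and 315 CPM in control CM and 301, 317 and 309 CPM in 4-OHT CM. The groups overlapped fully and the log2 fold change was -0.01 (SE 0.0333). *SDC2* made up 15.3 ± 0.227% of the summed FPKM of these 3 syndecans in control CM and 17.4 ± 0.810% in 4-OHT CM (SD, n = 3 each).

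**Figure D2:**
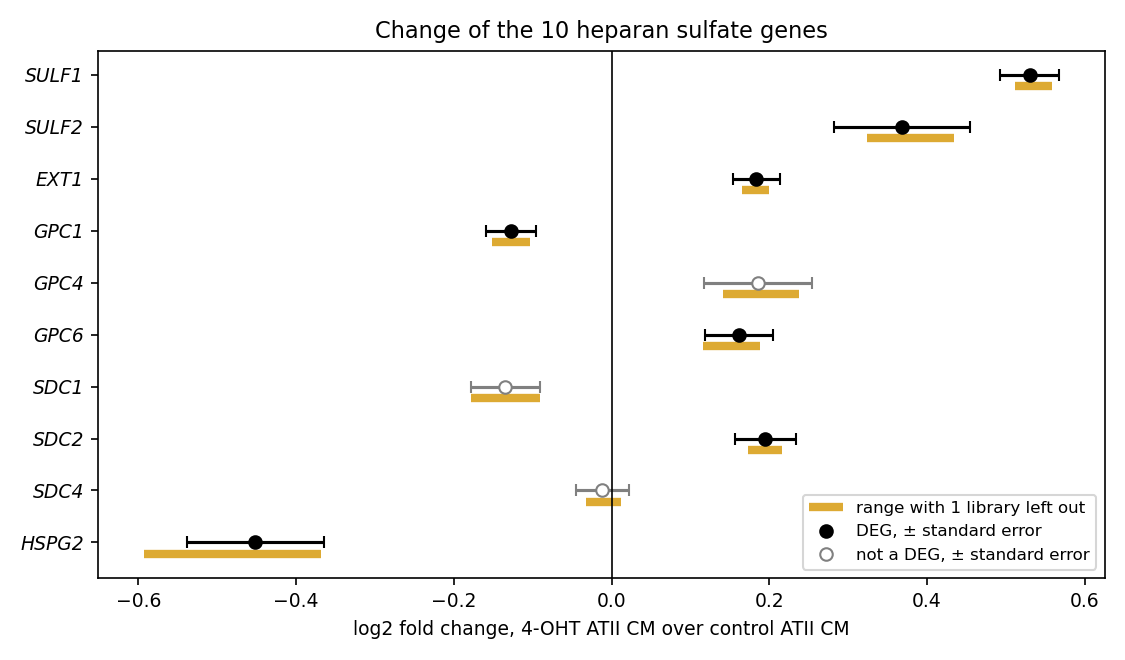
Log2 fold change of the 10 genes, 4-OHT CM over control CM (horizontal axis). Points are the fit to all 6 libraries with its standard error, filled for DEGs, and yellow bars span the fits with 1 library left out. *SULF1* lies at 0.53 with a narrow bar, and *HSPG2* has the widest bar, from -0.59 to -0.37.

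*HSPG2* (ENSG00000142798, chromosome 1, 21822245 to 21937297) encodes perlecan, a very large core protein of basement membranes. It had 264, 187 and 259 CPM in control CM and 177, 172 and 172 CPM in 4-OHT CM. The 3 libraries of 4-OHT CM were nearly equal, whereas control replicate 2 lay much closer to them than to the other 2 controls. The level was 237 ± 43.0 CPM (SD, n = 3) in control CM and 173 ± 2.87 CPM in 4-OHT CM, so the coefficient of variation was 18.1% and 1.65%. The log2 fold change was -0.45 (SE 0.0867). It was -0.59 without control replicate 2, -0.37 without control replicate 1 and -0.39 without control replicate 3, and *HSPG2* was a DEG in all 12 alternatives. Of its exons, 11.7% overlap those of *LDLRAD2*, which had 39 counts in all.

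With 18104 bases of merged exons, *HSPG2* is the longest of the 10 genes, the others having 2613 to 9404. Library differences followed gene length. Among the 310 genes of at least 15000 bases and a mean of at least 10 CPM, the median log2 deviation from the mean over libraries was 0.089, -0.085 and 0.068 in control replicates 1 to 3 and -0.026, -0.022 and -0.029 in 4-OHT replicates 1 to 3, the same order of control libraries as in *HSPG2*. The median log2 fold change of these long genes was -0.045, 7 were upregulated and 36 downregulated DEGs, and 3 of them, *HSPG2* included, had a log2 fold change as low as that of *HSPG2*. When the trend of each library on GC content and gene length was removed, *HSPG2* had a log2 fold change of -0.37 and remained a DEG, and the median of the long genes was 0.014. The part of transcript length beyond this correction was not tested.

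**Figure D3:**
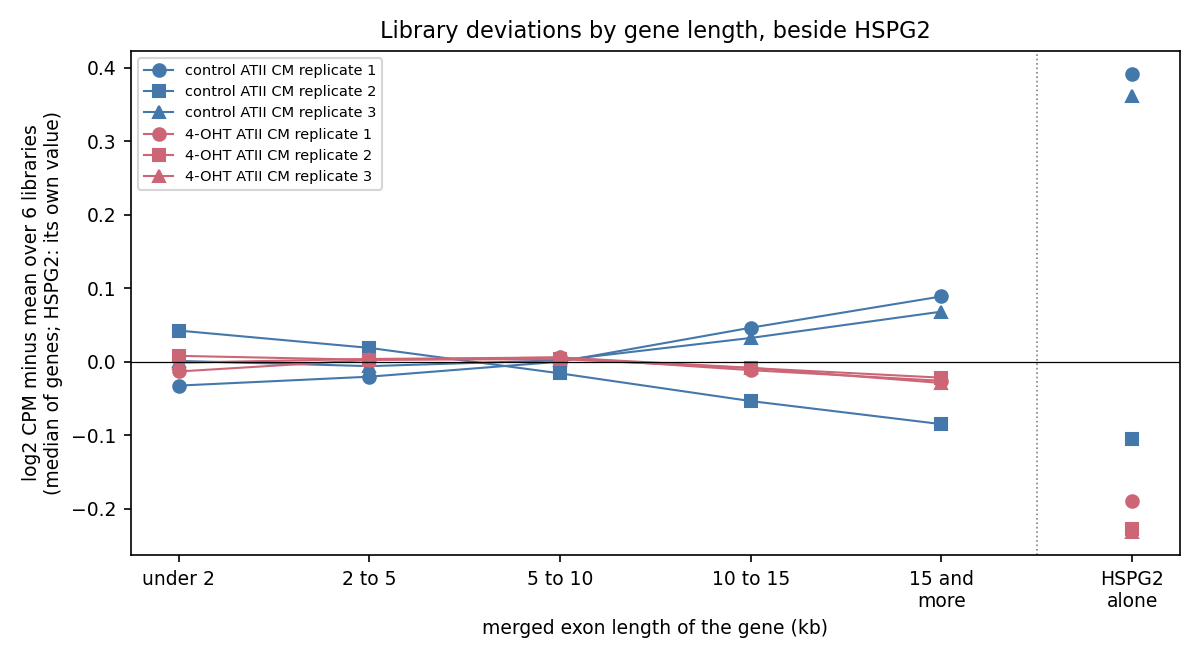
Deviation of each library from the mean over 6 libraries, in log2 CPM (vertical axis), as the median of genes in 5 classes of merged exon length (horizontal axis) and, at the right, for *HSPG2* alone. Blue marks are control CM and red marks 4-OHT CM. Control replicates 1 and 3 rise and control replicate 2 falls with length, and in *HSPG2* the same 2 controls stand far above the other 4 libraries.

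The genes whose pattern over the 6 libraries was most like that of *HSPG2*, by the root mean square difference of centred log2 CPM among 9197 genes, were *RELN*, *PRKDC*, *KMT2D*, *HUWE1* and *KMT2A*, at 0.040 to 0.058. They have 12642 to 31305 bases of merged exons, and in each of them control replicate 2 lay below both other controls. The 5 genes most like *SULF1* were *LXN*, *RASL11A*, *TXNIP*, *S1PR1* and *TSPAN12*, at 0.034 to 0.063, with 1504 to 5223 bases. The nearest was *LXN*, at 57.5, 56.0 and 56.3 CPM in control CM and 82.4, 78.6 and 78.9 CPM in 4-OHT CM. Of the 9 other heparan sulfate genes the one most like *SULF1* was *SULF2*, which ranked 101st at 0.13. Both rankings are descriptions over 6 libraries.

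In control CM the order of levels in FPKM was *SDC4* (119 ± 2.48, SD, n = 3), *GPC1* (83.4 ± 2.63), *EXT1* (59.4 ± 1.19), *SDC2* (25.4 ± 0.566), *SDC1* (21.3 ± 1.23), *GPC6* (13.1 ± 0.771), *SULF1*, *HSPG2* (13.1 ± 2.37), *GPC4* (4.33 ± 0.307) and *SULF2*. The ranges of *GPC6*, *SULF1* and *HSPG2* overlapped, so these 3 neighbours did not differ beyond their spread, while all other neighbours were apart. In 4-OHT CM *SULF1* stood next to *SDC1* (19.4 ± 0.196) with overlapping ranges, above *GPC6* (14.7 ± 0.102) and *HSPG2* (9.58 ± 0.159), and no other neighbours overlapped. Merged exons include parts that the transcripts of a cell may lack, so FPKM understates genes with many unused exons.

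Set together with the other 9 core proteins tested, the members gave a pool of 16 core protein genes whose summed FPKM was 454 ± 4.50 in control CM and 447 ± 2.36 in 4-OHT CM (SD, n = 3 each). *SDC4* was the largest share at 26.2 ± 0.293% and 26.4 ± 0.552%, followed by *GPC1* at 18.4 ± 0.427% and 17.1 ± 0.169%. *SDC2* went from 5.59 ± 0.112% to 6.50 ± 0.259% and *HSPG2* from 2.88 ± 0.541% to 2.14 ± 0.0445%. *COL18A1*, one of the other core proteins, had the largest increase of share, from 7.78 ± 0.0835% to 8.96 ± 0.204%, with no overlap between the groups. The 4 syndecans made up 49.6 ± 0.410% and 50.3 ± 0.284% of the pool.

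**Figure D4:**
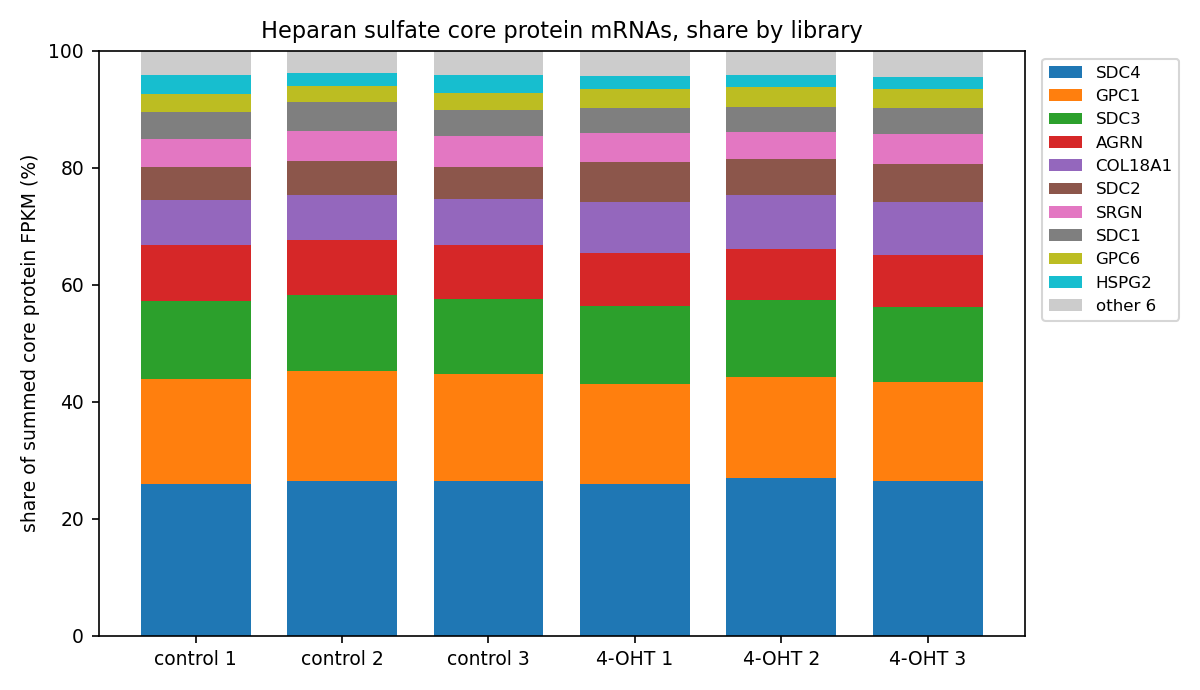
Share of each core protein gene in the summed FPKM of 16 heparan sulfate core protein genes (vertical axis, percent) in each of the 6 libraries (horizontal axis). Colors are genes, and grey sums the other 6. *SDC4* and *GPC1* are the 2 largest shares in every library, and the make-up differs little between groups.

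RefSeq promoters were matched for 7 of the 10 members, all but *SULF1*, *SDC2* and *EXT1*, and are shown for the 2 DEGs that were lower and for 2 of those that were higher in 4-OHT CM. Each run holds the 250 bases before the RefSeq gene start on GRCh38.p14, from 5′ to 3′ on the gene's strand, and the start lies 8 to 35 bases from that of the deposited gene model. Capitals mark matches on either strand to 3 motifs. The first, GGGCGG, is the core of a GC box. The second, TATAAA, has the letters of a TATA box and was counted at any place in the run. The third, CAGACA, is a sequence that SMAD proteins can bind.
GPC1, chr2:240435413-240435662, plus strand: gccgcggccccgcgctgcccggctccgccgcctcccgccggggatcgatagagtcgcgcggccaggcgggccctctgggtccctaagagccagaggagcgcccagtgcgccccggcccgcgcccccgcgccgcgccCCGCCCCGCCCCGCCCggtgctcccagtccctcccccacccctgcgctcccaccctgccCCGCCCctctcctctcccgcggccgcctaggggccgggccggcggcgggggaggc
HSPG2, chr1:21937311-21937560, minus strand: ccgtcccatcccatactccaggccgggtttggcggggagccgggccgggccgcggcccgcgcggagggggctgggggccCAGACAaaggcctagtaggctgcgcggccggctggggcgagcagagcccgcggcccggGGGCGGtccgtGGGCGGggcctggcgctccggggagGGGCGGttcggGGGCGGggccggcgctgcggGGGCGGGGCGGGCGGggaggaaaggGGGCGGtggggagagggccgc
SULF2, chr20:47786628-47786877, minus strand: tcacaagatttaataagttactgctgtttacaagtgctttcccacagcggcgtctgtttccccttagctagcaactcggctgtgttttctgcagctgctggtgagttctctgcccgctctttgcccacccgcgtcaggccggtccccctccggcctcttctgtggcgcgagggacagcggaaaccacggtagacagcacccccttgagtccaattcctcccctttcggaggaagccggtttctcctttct
GPC6, chr13:93226557-93226806, plus strand: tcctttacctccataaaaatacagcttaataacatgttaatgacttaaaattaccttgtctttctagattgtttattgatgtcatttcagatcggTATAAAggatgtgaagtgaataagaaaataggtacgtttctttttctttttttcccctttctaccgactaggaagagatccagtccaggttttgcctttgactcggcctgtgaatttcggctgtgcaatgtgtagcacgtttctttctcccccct
*HSPG2* has 8 matches to GGGCGG and *GPC1* has 4, some next to each other, while *SULF2* and *GPC6* have none. *SDC4*, which was not a DEG, also has 8, and *GPC4* and *SDC1* have 2 and 1. A match to GGGCGG is found in 42.6% of 35116 RefSeq promoters of this length, one to TATAAA in 10.7% and one to CAGACA in 13.6%. *GPC6* has 1 match to TATAAA, and *HSPG2* and *SDC1* have 1 each to CAGACA. The GC content of the window was 84.0% in *GPC1*, 82.8% in *HSPG2*, 56.8% in *SULF2* and 37.6% in *GPC6*. In *GPC4*, *SDC4* and *SDC1*, which were not DEGs, it was 76.0%, 73.6% and 66.4%. Where transcription starts in MRC5 cells was not measured, and a match is a description of these letters only.

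Beyond the 10 members, 76 genes of the heparan sulfate pathway were followed in 8 lists, of which 64 passed the count filter. Of these, 6 were upregulated DEGs and 1 was downregulated, or 10.9%, against 5.72% of all genes tested. All 7 DEGs lie among the 48 with a mean of at least 10 CPM, where they make up 14.6%, against 10.2% of all genes of that level. Over the 64 the median log2 fold change came to 0.040. Leaving out 4-OHT CM replicate 2 lowered the number of DEGs to 3, and leaving out control CM replicate 2 raised it to 10. The 8 lists were written with earlier results of these data known. Nothing is therefore read from their shares, or from the counts of single lists below, against those of all genes.

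**Figure D5:**
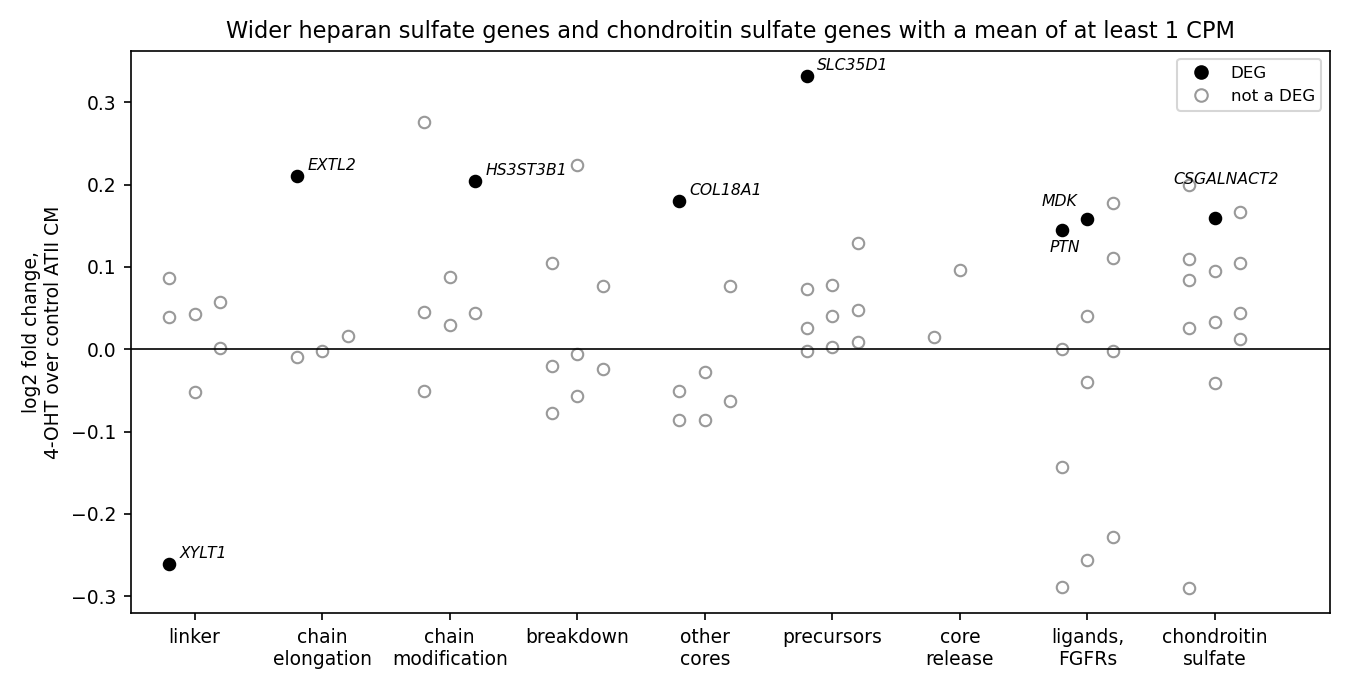
Log2 fold change, 4-OHT CM over control CM (vertical axis), of genes of the 8 wider heparan sulfate lists and of the chondroitin sulfate list (horizontal axis) with a mean of at least 1 CPM. Filled points are DEGs, named, and open points are other genes. Most genes lie near 0, and *XYLT1* at -0.26 is the only DEG below it.

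Of 7 linker synthesis genes, all tested, 1 fell and none rose. It was *XYLT1*, one of the 2 xylosyltransferases that start both heparan and chondroitin sulfate chains, at 26.8, 26.1 and 25.5 CPM in control CM and 22.1, 20.7 and 22.7 CPM in 4-OHT CM. The log2 fold change was -0.26 (SE 0.0597, adjusted p = 0.0157 from edgeR), and it was -0.23 after the correction for GC content and length. Without control replicate 1 or 4-OHT replicate 2 the adjusted p from edgeR was 0.0625 and 0.0900. *XYLT2*, the more abundant of the pair, was at 73.2 ± 1.96 CPM and 75.4 ± 1.40 CPM (SD, n = 3 each). Its log2 fold change was 0.04 (adjusted p = 0.641 from edgeR).

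Of 4 other genes of chain initiation and elongation, 1 rose. *EXTL2*, which acts on the linker region, had 64.0, 59.1 and 63.5 CPM in control CM and 73.9, 71.3 and 71.0 CPM in 4-OHT CM. The log2 fold change was 0.21 (SE 0.0416, adjusted p = 0.00596 from edgeR), and the call held in all 12 alternatives.

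Of 16 enzymes that modify the chain, 10 were tested and 1 rose. *HS3ST3B1*, a 3-O-sulfotransferase, went from 39.0, 38.3 and 36.8 CPM to 41.4, 44.3 and 45.6 CPM, a log2 fold change of 0.20 (SE 0.0493, adjusted p = 0.0217 from edgeR). Its call was lost without control replicate 3, 4-OHT replicate 2 or 4-OHT replicate 3, with an adjusted p from edgeR of 0.126, 0.0968 and 0.150. *HS6ST1*, which adds the 6-O-sulfate that the SULF enzymes remove, was at 197 ± 14.1 CPM and 203 ± 5.38 CPM (SD, n = 3 each), with a log2 fold change of 0.05 (adjusted p = 0.689 from edgeR). *NDST4*, *HS6ST2*, *HS3ST2*, *HS3ST4* and *HS3ST6* had no count in any library. The transcript of *NDST2* is contained in that of a second gene, so its count is uncertain, as are those of 1 gene each of the breakdown and precursor lists that share near-identical sequence with another gene.

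Of 10 genes of precursor supply, all tested, 1 rose. *SLC35D1*, a transporter of UDP-sugars into the endoplasmic reticulum, had 89.0, 87.6 and 89.7 CPM in control CM and 106, 113 and 116 CPM in 4-OHT CM. Its log2 fold change of 0.33 (SE 0.0400, adjusted p = 0.000141 from edgeR) was the largest among the 7 DEGs of these lists, and the call held in all 12 alternatives. Of 11 other core proteins, 9 were tested and *COL18A1*, the chain of a basement membrane collagen that carries heparan sulfate, was the 1 that rose, with a log2 fold change of 0.18 (SE 0.0329, adjusted p = 0.00348 from edgeR), held in all 12 alternatives. Its exons overlap those of *SLC19A1*, and without a stated strand setting reads there cannot be told apart. *AGRN*, which encodes the basement membrane core protein agrin, had a log2 fold change of -0.09 (adjusted p = 0.114 from edgeR).

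Of 14 heparin-binding growth factors and FGF receptors, 13 were tested and 2 rose, *PTN* and *MDK*, which encode the related factors pleiotrophin and midkine. *PTN* had 161, 169 and 160 CPM in control CM and 183, 181 and 178 CPM in 4-OHT CM, a log2 fold change of 0.15 (SE 0.0355, adjusted p = 0.0233 from edgeR). *MDK* had 281, 306 and 307 CPM and 326, 349 and 324 CPM, a log2 fold change of 0.16 (SE 0.0409, adjusted p = 0.0313 from edgeR). Both calls were lost when any 1 library other than control replicate 2 was left out, with an adjusted p from edgeR of 0.0818 to 0.141 for *PTN* and 0.0513 to 0.181 for *MDK*. *FGFR1*, the most abundant FGF receptor here, was at 379 ± 11.5 CPM and 379.6 ± 8.48 CPM (SD, n = 3 each), with a log2 fold change of 0.00093 (adjusted p = 0.995 from edgeR).

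Of 10 genes of chain breakdown, 9 were tested and none was a DEG with edgeR or DESeq2. Of these 9, 1 had an unadjusted p below 0.05 with edgeR, as had 17.3% of all genes tested. Of 4 genes that release core proteins from the surface, 2 were tested and none was a DEG with edgeR or DESeq2 or had an unadjusted p below 0.05. *ADAM10*, a protease that sheds syndecans among other proteins, was at 329 ± 8.23 CPM and 333 ± 5.24 CPM (SD, n = 3 each).

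Chondroitin and dermatan sulfate are built on the same linker, and of 16 genes of their synthesis 14 were tested. *CSGALNACT2*, which adds the first chondroitin sugar, was the 1 DEG, at 71.3, 73.7 and 70.6 CPM in control CM and 79.8, 79.7 and 81.0 CPM in 4-OHT CM. Its log2 fold change was 0.16 (SE 0.0373, adjusted p = 0.0181 from edgeR). The call was lost without control replicate 1 or 3 or 4-OHT replicate 2 or 3, with an adjusted p from edgeR of 0.0628 to 0.118. This 1 DEG is 7.14% of the 14, near the 5.72% of all genes tested. Over the 14 the median log2 fold change came to 0.090, and 7 had an unadjusted p below 0.05 with edgeR, as had 17.3% of all genes tested.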

How the data were processed

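Reads were trimmed (Trim Galore), mapped to GRCh38 (HISAT2 2.1.0) and counted per gene (featureCounts 1.6.5) by the authors. The deposited values are raw counts per gene and library, with merged exon lengths. The annotation release and the strand setting are not given in the sources used here. Counts of 45 identifiers listed on both X and Y were added and symbols were found for 58207 identifiers.

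Genes with at least 10 counts over the 6 libraries were scaled by TMM and tested in edgeR 4.0.16 under R 4.3.3 by its quasi-likelihood F test, without covariates, with Benjamini-Hochberg adjustment (threshold 0.05). A standard error (SE) is the fold change over the root of F. DESeq2 1.42.0 was an alternative (the study used DESeq2 in another version), beside other normalization and filters, a replicate block, a correction for GC content (known for 99.4% of genes tested) and length by splines of 5 degrees of freedom, and leaving out each library. Genes named are the members, DEGs of the lists or else the gene of each list with the highest FPKM, and the 5 nearest in pattern; *EXT2*, *XYLT2*, *HS6ST1*, *FGFR1* and *AGRN* were added after their values were seen. The gene this rule gave for chain breakdown is not reported here. Members and lists were chosen with earlier results of these data known. In simulated counts for 18679 genes, edgeR called 77 of 100 genes changed by 0.5 and 94 of 100 changed by 1 on the log2 scale, with 13 false calls. The simulated spread depended on level alone, without a trend on gene length or a library that stood apart. These numbers therefore do not cover such effects in the real counts. Named genes were searched for near-identical transcripts with minimap2 (at least 50% covered, at least 95% identity). No 2 replicates were alike within counting error (chi-square over its degrees of freedom, 2.04 to 5.56).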

Additional observations from a re-analysis of the deposited data

How the results depend on the processing

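The number of DEGs among all genes, 1090, ranged from 533 to 1530 with 1 library left out, and the number among the 10 members, 7, from 3 (without control replicate 3) to 7. It was 4 without 4-OHT replicate 1 and 4 without 4-OHT replicate 2. Leaving out control replicate 2 kept all 7, as did DESeq2, median-ratio normalization, both other filters, the replicate block and the correction for GC content and length. The number in the wider heparan sulfate lists ranged from 3 to 10 with 1 library left out, and in the chondroitin sulfate list from 0 to 1. The latter was 2 with a filter of at least 1 count.

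Of 120 alternative values of the 10 members, 107 kept direction and call, 12 lost the call and 1 changed sign. This was *SDC4*, at -0.032 to 0.012 with 1 library left out, the upper value without 4-OHT replicate 1. Of 228 values of the other named genes, 186 kept both, 41 lost the call and 1 changed sign, which was that of *ADAM10* (-0.0021 to 0.031 with 1 library left out, the lower value without control replicate 2). The 5 genes most like *HSPG2* in pattern were not DEGs with DESeq2. Another scaling moved the median log2 fold change of all genes by -0.0018.

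Same-numbered libraries of the 2 groups did not deviate together (correlations of -0.014, -0.10 and -0.093 over 9691 genes), so they share only a number. With the replicate block the number of DEGs was 985, that of the members 7 and that of the wider lists 7. Of the members, *SULF2* had the fewest counts, 174 to 346 per library.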
